A study of Homo sapiens with 6 samples.

Results

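The genes described here are 10 that act in macroautophagy: the ATG8 family members MAP1LC3B, GABARAP, GABARAPL1 and GABARAPL2, the cargo receptors SQSTM1 and NBR1, the kinase ULK1, the membrane proteins WIPI1 and ATG9A, and the transcription factor TFEB. They were picked by symbol from a table of 17335 genes, and all 10 were listed. The cells were A549, an established human line from a lung adenocarcinoma. They had received either BRQ or the solvent DMSO, with 3 libraries per group, and were kept in F12K medium with serum. The title of the series speaks of inhibiting DHODH, and BRQ is presumed to be the compound used for it. DHODH is the mitochondrial enzyme that makes orotate for pyrimidine synthesis. The labels give no dose, no exposure time and no genetic change, and nothing in them tells whether each library had its own culture. The p-values therefore reflect differences among the 6 libraries, which could be technical alone.

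In macroautophagy a double membrane closes around cytoplasm, and the resulting autophagosome fuses with a lysosome. The ULK1 kinase complex starts the process, ATG9A and WIPI proteins help the membrane to grow, and ATG8 proteins are joined to a membrane lipid. Receptors such as SQSTM1 and NBR1 bind both the cargo and ATG8 proteins and are degraded with the cargo. TFEB moves to the nucleus when the kinase mTORC1 is inactive and switches on lysosome and autophagy genes. Transcript levels do not measure autophagic flux, and TFEB activity is set largely by its location in the cell.

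The ATG8 genes are close relatives, and the ends of their coding sequences are shown because ATG4 proteases cut there. The enzymes expose a glycine, whose codon is in capitals below. Sequences run 5′ to 3′ up to the last codon before the stop and come from GENCODE release 29 (GRCh38).
MAP1LC3B: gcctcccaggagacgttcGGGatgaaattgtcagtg
MAP1LC3B2: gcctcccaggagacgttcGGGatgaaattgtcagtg
MAP1LC3A: gcctcccaggaaaccttcGGCttc
GABARAP: agtgacgaaagtgtctacGGTctg
GABARAPL1: agtgatgagagtgtctatGGGaaa
GABARAPL2: agcggagagaacacttttGGCttc
The codon was number 120 of 125 in MAP1LC3B and number 116 of 117 in each of the 3 GABARAP genes. MAP1LC3B and MAP1LC3B2 differed at 2 of 375 coding bases. GABARAP and GABARAPL1 were identical at 76.6% of coding bases, GABARAP and GABARAPL2 at 62.1%, and MAP1LC3B and GABARAPL1 at 55.5%. Of the 50-base stretches in MAP1LC3B transcripts, 4.82% also occur in MAP1LC3B2, and 15.1% of those in MAP1LC3B2 occur in MAP1LC3B. The latter percentage is over 1759 stretches from all GENCODE transcripts of MAP1LC3B2. The length behind its FPKM values was 818 bases, so the shared part of what was counted may be larger. The values of MAP1LC3B2, the less abundant of the pair, are the more uncertain where reads match both.

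Values are FPKM, fragments scaled to gene length and to the read total of the library. They are shares of each library's RNA, so fewer cells with a transcript and less of it per cell cannot be told apart. The library totals worked back from the values were 32195353 to 34908895 reads in BRQ and 27789225 to 29644462 reads in DMSO. All 6 epithelial markers were above 0 in every library, with a summed level of 1368 to 1471 FPKM in BRQ and 1228 to 1243 FPKM in DMSO, and 5 of them were called higher and 1 lower. Of 6 alveolar type II markers 1, ABCA3, passed the filter, and the other 5 (4 surfactant genes and NKX2-1) reached at most 0.332 FPKM in any library, so these cells carried little transcript of that cell type's defining markers. Of 8 leukocyte and stromal markers, 6 were listed, and all but COL1A1 stayed at or below 0.103 FPKM. COL1A1 made up most of the summed level of this list, which was 3.96 to 4.11 FPKM in BRQ and 1.19 to 1.69 FPKM in DMSO. Its part in the results below was not tested.

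All 10 genes passed the filter of 0.5 FPKM in 3 libraries, and did so in all 6 libraries. In limma's test with Benjamini-Hochberg adjustment over all 12258 tested genes, 5 of them rose in BRQ (MAP1LC3B, GABARAPL2, ULK1, NBR1 and SQSTM1), 3 fell (GABARAPL1, GABARAP and ATG9A) and 2 were not called (WIPI1 and TFEB), at an adjusted p under 0.05. The 3 BRQ values lay wholly above or below the 3 DMSO values for the same 8 genes, as they did for 81.4% of all tested genes. Of all tested genes 79.7% were called, 44.3% as higher and 35.4% as lower, so 8 of 10 is near the background. The excess of higher calls depended on scaling: 5425 genes were higher and 4343 lower, but 4851 and 4873 under TMM factors and 4713 and 4959 under quantile normalization. The median log2 fold change of the 10 genes was 0.17, against 0.07 over all tested genes (-0.018 under quantile normalization). Changes of at least 1.5-fold were seen in 4 of the 10 genes (background 36.7%) and of at least 2-fold in 2 (background 15.4%). A larger absolute log2 fold change than that of MAP1LC3B occurred in 6.22% of all tested genes, and a larger one than that of GABARAPL1 in 11.9%.

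**Figure D1:**
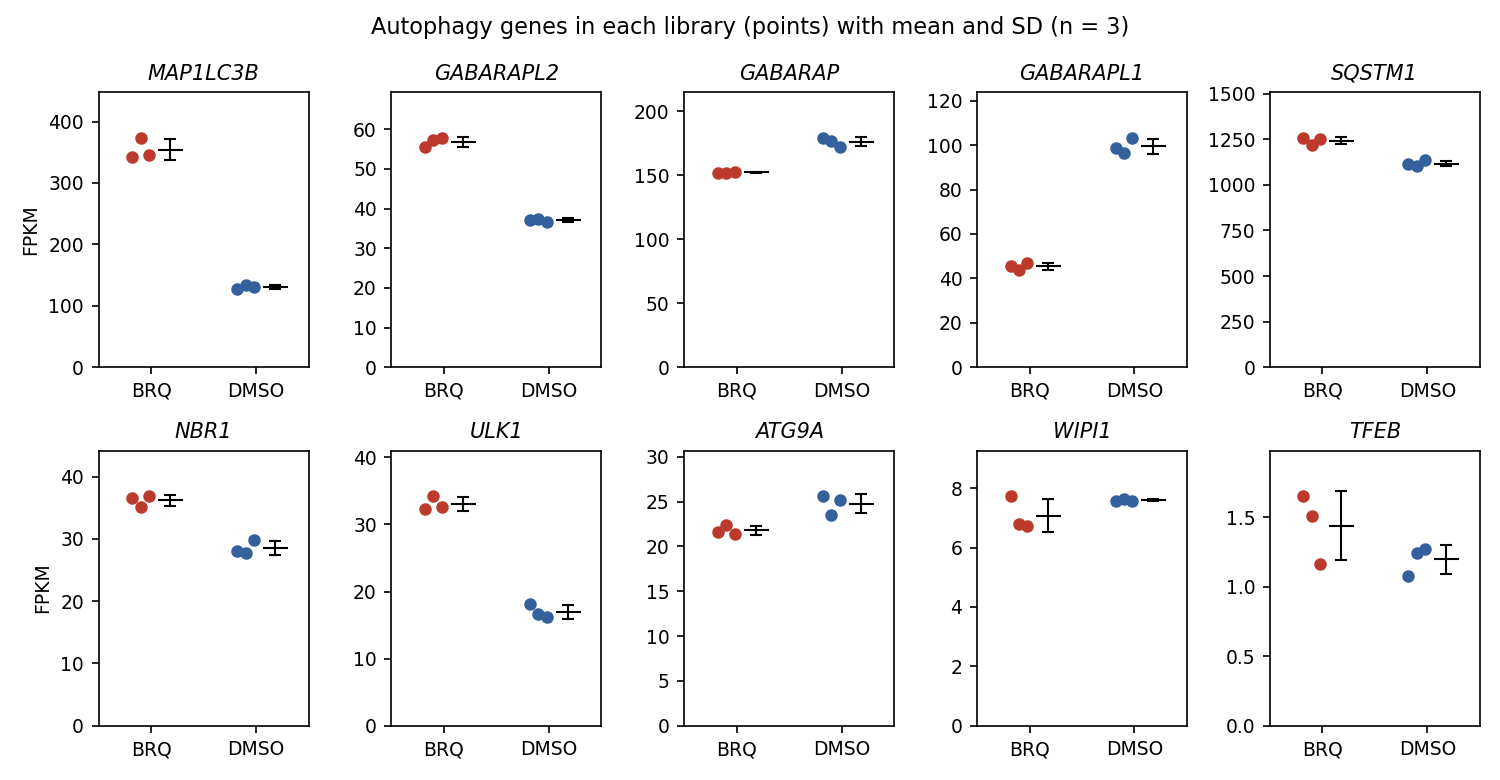
FPKM (vertical axes, each starting at 0) of the 10 autophagy genes in the 3 BRQ libraries (red) and the 3 DMSO libraries (blue), with the mean and SD beside the points (n = 3). The groups do not overlap for MAP1LC3B, GABARAPL2, GABARAP, GABARAPL1, SQSTM1, NBR1, ULK1 and ATG9A, and they overlap for WIPI1 and TFEB.

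Within the ATG8 family the abundant LC3 gene MAP1LC3B and its copy MAP1LC3B2 rose by similar amounts. MAP1LC3B, the gene of the autophagosome marker LC3B, lies on the plus strand of chromosome 16 (87392336 to 87404774, GRCh38). It had 343, 373 and 346 FPKM in the BRQ libraries, against 128, 134 and 131 FPKM in the DMSO libraries. Every BRQ value was above every DMSO value, and the means were 354 ± 17.0 FPKM in BRQ and 131 ± 3.38 FPKM in DMSO (SD, n = 3 each), a 2.70-fold difference. The log2 fold change was 1.43 (SE 0.04, limma adjusted p = 4.25e-10) and rested on 7614 to 25913 reads per library.

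MAP1LC3B2, the near-identical copy on chromosome 12, rose as well, with 26.1 ± 1.28 FPKM in BRQ and 9.88 ± 1.42 FPKM in DMSO (SD, n = 3 each; log2 fold change 1.37, SE 0.09). Its order relative to MAP1LC3B was not fixed, since it reached 1.47 without DMSO replicate 3, against 1.43 for MAP1LC3B in the same fit, and reads may be shared between the pair. The more distant relative MAP1LC3A had 11.6 ± 0.977 FPKM in BRQ and 7.19 ± 0.487 FPKM in DMSO (log2 fold change 0.65, called). MAP1LC3C was below the filter, with mean levels of 0.170 FPKM in BRQ and 0.145 FPKM in DMSO.

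GABARAPL1 was the only ATG8 gene with a 2-fold fall. It encodes a GABARAP-type ATG8 protein and lies on chromosome 12 (10212877 to 10223128, plus strand, GRCh38). It had 45.5, 43.9 and 46.9 FPKM in BRQ, against 98.7, 96.6 and 103 FPKM in DMSO. The groups lay far apart, at 45.4 ± 1.55 FPKM in BRQ and 99.5 ± 3.43 FPKM in DMSO (SD, n = 3 each), 2.19-fold lower in BRQ. The log2 fold change was -1.12 (SE 0.04, limma adjusted p = 2.14e-09) on 3257 to 6798 reads.

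GABARAP, on chromosome 17 (7240008 to 7242449, minus strand), moved little. Its levels were 152, 152 and 153 FPKM in BRQ, against 179, 177 and 172 FPKM in DMSO. The groups did not overlap, and the log2 fold change was -0.21 (SE 0.03, limma adjusted p = 3.87e-05). With the trend of fold change against genomic span removed it was -0.44. A coding gene annotated on the same strand overlaps 2023 bases of this short locus, so reads may be shared.

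GABARAPL2, also known as GATE-16, is on chromosome 16 (75566379 to 75577881, plus strand). It rose to 55.4, 57.3 and 57.8 FPKM in BRQ, against 37.1, 37.5 and 36.5 FPKM in DMSO. No library of one group reached the other, and the difference was 1.54-fold, or 0.61 on the log2 scale (SE 0.03, limma adjusted p = 5.19e-08). It rested on 502 to 983 reads as worked back from the values. The gene length worked back with them was 487 bases, below the 571 bases of the shortest GENCODE transcript. The smallest length that gave whole reads was taken, so the same multiple of length and reads would match the values equally well. The length, the reads and the level of GABARAPL2 relative to other genes are therefore uncertain. A fixed length cancels from the ratio between groups, but which part of the gene was counted is not known.

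The makeup of the family transcripts therefore differed between the groups. The summed level of the 7 ATG8 genes was 646 ± 16.9 FPKM in BRQ and 461 ± 1.85 FPKM in DMSO (SD, n = 3 each). MAP1LC3B made up 54.7 ± 1.19% of this sum in BRQ and 28.4 ± 0.620% in DMSO. GABARAP made up 23.6 ± 0.652% in BRQ and 38.2 ± 0.847% in DMSO, and GABARAPL1 made up 7.03 ± 0.393% in BRQ and 21.6 ± 0.765% in DMSO. The share of GABARAPL2 was close to level, at 8.80 ± 0.220% in BRQ and 8.03 ± 0.104% in DMSO. With the longest GENCODE transcripts as lengths, and only the 4 main genes in the sum, the GABARAPL2 share was 2.94% in BRQ and 2.54% in DMSO. Both shares rest on its worked-back reads and would be larger if those reads were too few. The LC3 genes summed to 392 ± 17.9 FPKM in BRQ and 148 ± 3.99 FPKM in DMSO, while the GABARAP genes summed to 255 ± 2.70 FPKM in BRQ and 313 ± 2.14 FPKM in DMSO. The ratio of LC3 to GABARAP transcripts was thus 1.54 ± 0.0794 in BRQ and 0.474 ± 0.0160 in DMSO. These shares are described without a test.

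Ratios between paralogs within a library followed from these changes and are given without a test. The log2 ratio of MAP1LC3B to GABARAPL1 was 2.95 ± 0.112 in BRQ and 0.39 ± 0.0712 in DMSO (SD, n = 3 each). The pair GABARAPL1 and GABARAP, the closest relatives among the GABARAP genes, had a log2 ratio of -1.74 ± 0.0441 in BRQ and -0.82 ± 0.0741 in DMSO.

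**Figure D2:**
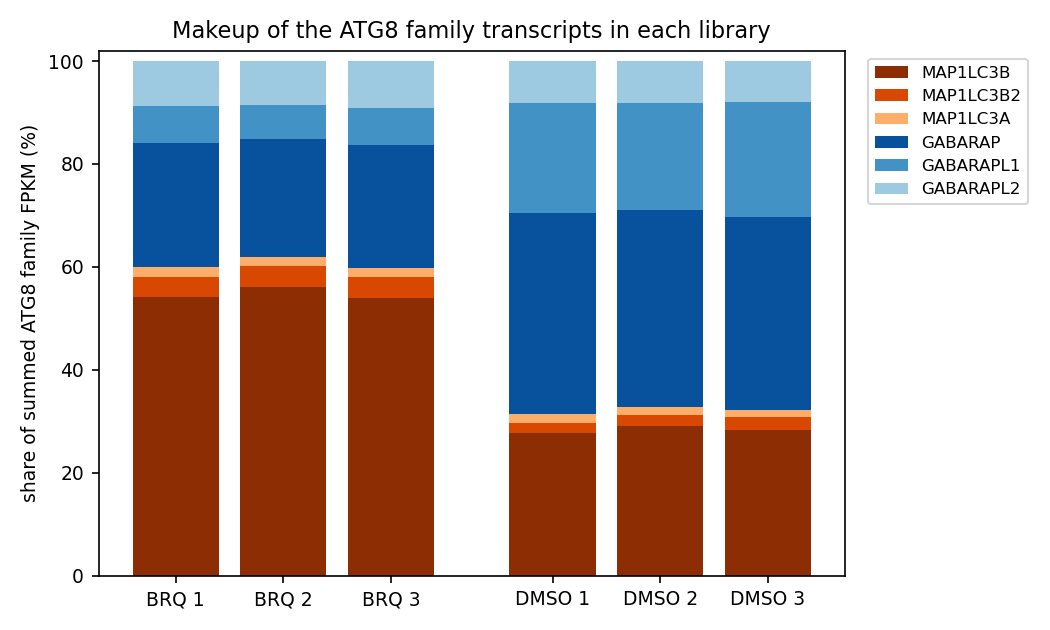
Share of each ATG8 gene in the summed FPKM of the family (vertical axis, percent; MAP1LC3C, at most 0.0413% in any library, is not drawn) in the 3 BRQ libraries and the 3 DMSO libraries. The LC3 genes (orange and brown) take more than the GABARAP genes (blue) in every BRQ library and less in every DMSO library; MAP1LC3B averages 54.7% in BRQ and 28.4% in DMSO.

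The stretches upstream of MAP1LC3B and GABARAPL1, the members with at least 2-fold changes in opposite directions, are shown from 150 bases before the start site to the base before it (RefSeq, GRCh38.p14, plus strand). Capitals mark a match to TGACNNNGC, the core of the antioxidant response element, which NRF2 binds.
MAP1LC3B, chr16:87392186-87392335: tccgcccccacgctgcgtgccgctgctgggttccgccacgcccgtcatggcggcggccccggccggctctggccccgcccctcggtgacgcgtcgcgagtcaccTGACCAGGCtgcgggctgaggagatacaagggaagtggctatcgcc
GABARAPL1, chr12:10212727-10212876: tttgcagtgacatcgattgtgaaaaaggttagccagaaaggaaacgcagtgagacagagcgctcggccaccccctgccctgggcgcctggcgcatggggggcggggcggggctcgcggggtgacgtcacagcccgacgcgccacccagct
All 10 genes had at least 1 entry among the 35116 promoter windows of 300 bases (250 before and 50 after the start), 15 windows in all. Both strands were searched for TGACNNNGC, for CACGTG (the E-box core), for the longer TCACGTGA that contains it, the core of the CLEAR element of TFEB targets, and for GTAAACA (a FOXO site). The MAP1LC3B match, 46 bases before its start, was the only hit in the 15 windows. Sequence outside the windows was not searched, so a gene without a hit may have such a site farther away. Of all windows 13.3% held TGACNNNGC, 7.26% CACGTG, 0.980% TCACGTGA and 3.42% GTAAACA. The window of MAP1LC3B was 75.7% G or C with 42 CpG sites and that of GABARAPL1 was 51.7% with 18, against medians of 58.7% and 14 over all windows. A match is a description of letters and does not show a bound site.

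Both receptors rose by small amounts. SQSTM1, which encodes p62, a receptor for ubiquitinated cargo that also binds KEAP1, had the highest level of the 10 genes. It lies on chromosome 5 (179806393 to 179838078, plus strand, GRCh38) and had 1258, 1221 and 1250 FPKM in BRQ, against 1115, 1103 and 1134 FPKM in DMSO. The lowest BRQ value was above the highest DMSO value, and the ratio of means was 1.11 (log2 fold change 0.15, SE 0.03, limma adjusted p = 0.000231). Its size depended on scaling, with a log2 fold change of 0.08 under TMM factors (adjusted p = 0.0206, limma) and 0.44 under quantile normalization. SQSTM1 overlaps MGAT4B and MRNIP on the opposite strand, whose means were 58.6 and 6.68 FPKM in BRQ and 40.9 and 5.24 FPKM in DMSO. Nothing given says whether reads were counted by strand.

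NBR1, a larger receptor with a similar domain plan that acts together with p62, is on chromosome 17 (43170409 to 43211688, plus strand). It had 36.6, 35.1 and 36.8 FPKM in BRQ, against 28.0, 27.7 and 29.8 FPKM in DMSO, again without overlap. The ratio was 1.27 (log2 fold change 0.34, SE 0.04, limma adjusted p = 2.23e-05). Per library, the FPKM ratio of SQSTM1 to NBR1 was 34.4, 34.8 and 33.9 in the BRQ libraries, against 39.7, 39.9 and 38.1 in the DMSO libraries, without overlap.

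Among the genes of initiation and membrane growth, ULK1 nearly doubled. ULK1, the serine/threonine kinase that is switched off by mTORC1 and on by AMPK, lies on chromosome 12 (131894622 to 131923150, plus strand). It had 32.3, 34.2 and 32.6 FPKM in BRQ, against 18.1, 16.6 and 16.2 FPKM in DMSO. The groups were well apart at a ratio of 1.95 (log2 fold change 0.94, SE 0.05, limma adjusted p = 3.73e-08), on 2491 to 6136 reads.

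ATG9A, a lipid scramblase carried on vesicles to the growing membrane, is on chromosome 2 (219219380 to 219229636, minus strand). It had 21.7, 22.4 and 21.4 FPKM in BRQ, against 25.6, 23.5 and 25.1 FPKM in DMSO. The fall was small and without overlap (log2 fold change -0.18, SE 0.04, limma adjusted p = 0.00340), and it was -0.27 with the span trend removed. A coding gene annotated on the same strand overlaps 3359 bases of the ATG9A locus.

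WIPI1, which binds phosphatidylinositol 3-phosphate on the forming membrane, is on chromosome 17 (68421281 to 68457496, minus strand). Its levels were 7.73, 6.79 and 6.72 FPKM in BRQ, against 7.58, 7.65 and 7.59 FPKM in DMSO. BRQ replicate 1 lay above the DMSO libraries and the other two lay below them. The log2 fold change was -0.10 (95% interval -0.24 to 0.04, limma adjusted p = 0.174), so a change in either direction was not detectable. Without BRQ replicate 1 the log2 fold change was -0.16 and the gene was called lower (adjusted p = 0.0384, limma), as it was under TMM factors (adjusted p = 0.0314), with a range of 0.0314 to 0.415 over 17 alternatives.

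TFEB had the lowest level of the 10 genes. It is on chromosome 6 (41683978 to 41736223, minus strand) and had 1.65, 1.51 and 1.17 FPKM in BRQ, against 1.08, 1.25 and 1.27 FPKM in DMSO, from 103 to 187 reads per library. The groups overlapped through BRQ replicate 3, and the log2 fold change was 0.19 (95% interval -0.07 to 0.44, limma adjusted p = 0.154). It was called higher without BRQ replicate 3 (log2 fold change 0.29, adjusted p = 0.0363, limma), and its sign turned under quantile normalization (-0.054). Over 17 alternatives the adjusted p ran from 0.0363 to 0.690. The related factor TFE3 was far more abundant, at 58.4 ± 0.991 FPKM in BRQ and 65.6 ± 2.05 FPKM in DMSO (SD, n = 3 each), and fell slightly (log2 fold change -0.17). The third relative, MITF, had 9.45 ± 0.223 FPKM in BRQ and 9.48 ± 0.241 FPKM in DMSO and was not called (log2 fold change -0.0050, limma adjusted p = 0.928).

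The order of levels changed in 3 places. From the highest level down, the BRQ libraries gave SQSTM1, MAP1LC3B, GABARAP, GABARAPL2, GABARAPL1, NBR1, ULK1, ATG9A, WIPI1 and TFEB. In the DMSO libraries GABARAP stood above MAP1LC3B, GABARAPL1 above GABARAPL2 and ATG9A above ULK1, with the other genes in the same places. No pair of neighbours in either order overlapped between libraries. The place of GABARAPL2 depends on the gene length behind its values, which is uncertain.

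**Figure D3:**
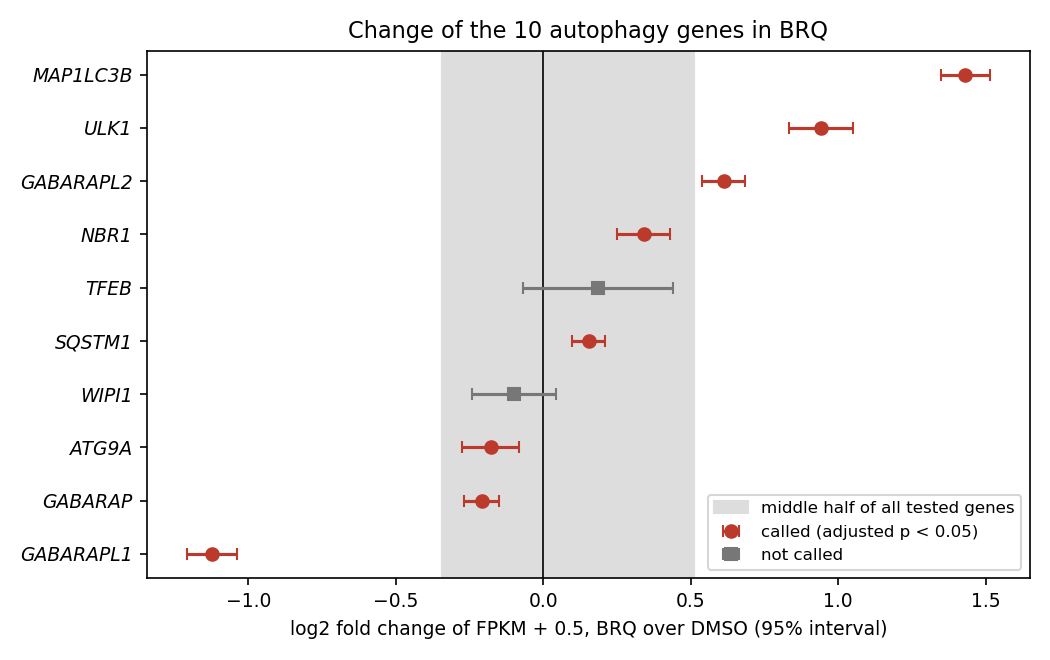
Log2 fold change of FPKM + 0.5, BRQ over DMSO (horizontal axis), with its 95% interval from limma, for the 10 autophagy genes (vertical axis). Circles were called at an adjusted p under 0.05 and squares were not; the grey band is the range from the lower (-0.34) to the upper quartile (0.51) of all tested genes. MAP1LC3B, ULK1 and GABARAPL2 lie above the band and GABARAPL1 below it.

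The other genes of the pathway were grouped by step, 127 genes in 10 lists, of which 125 were tested. Of these 60 rose and 49 fell, with a median log2 fold change of 0.09 against 0.07 over all tested genes. The numbers were 51 higher and 54 lower under TMM factors, and 54 and 55 under quantile normalization. The counts are descriptions beside the background of 79.7% called, without a test of the lists.

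Of the 4 initiation genes 3 rose and 1 fell (median log2 fold change 0.33). ULK2, the second ULK kinase, had 5.00 ± 0.270 FPKM in BRQ and 2.88 ± 0.122 FPKM in DMSO (log2 fold change 0.70), and ATG13, a scaffold of the same complex, rose by 0.49 on the log2 scale. ATG101, which holds ATG13 stable, fell (log2 fold change -0.30). The nucleation list holds subunits of early and late PI3-kinase complexes and regulators of them. Of its 8 genes 3 rose and 4 fell (median -0.18), and those that fell were UVRAG, AMBRA1, RUBCN and PIK3R4. With the span trend removed 3 were higher and 3 lower. AMBRA1, which spans 198 kb, was called in 17 of 18 fits (log2 fold change -0.41 to -0.062), and PIK3R4 in 16 of 18. BECN1, a core subunit, rose to 53.1 ± 1.97 FPKM in BRQ, against 34.4 ± 0.923 FPKM in DMSO (log2 fold change 0.62), and the accessory subunit NRBF2 rose by 0.53. UVRAG, a subunit that serves late stages, fell to 3.34 ± 0.238 FPKM in BRQ, against 7.48 ± 0.171 FPKM in DMSO (log2 fold change -1.06). UVRAG spans 329 kb, and with the span trend removed its log2 fold change was -0.58.

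The membrane supply list had 6 of 7 tested genes higher and 1 lower (median 0.25), and 3 higher and 1 lower under TMM factors. WIPI2, the relative of WIPI1 that recruits the ATG16L1 complex, rose to 15.8 ± 0.454 FPKM in BRQ, against 6.73 ± 0.439 FPKM in DMSO (log2 fold change 1.17, SE 0.06, limma adjusted p = 2.69e-08). WDR45 (log2 fold change 0.75), another WIPI family gene, and TMEM41B (0.68), a scramblase of the endoplasmic reticulum, also rose. In the conjugation list, which holds the enzymes that attach ATG8 proteins to lipid, 5 of 11 genes rose and 4 fell (median 0.23; 6 and 3 with limma-voom on recovered reads, 7 and 3 without BRQ replicate 3). ATG4A (0.56), a protease that prefers GABARAP-type proteins, rose, and so did ATG16L2 (0.68), which had 1.21 ± 0.215 FPKM in BRQ and 0.561 ± 0.0484 FPKM in DMSO. The log2 fold change of ATG16L2, a low gene, was 0.34 under quantile normalization and 1.09 with limma-voom on recovered reads. ATG7, the enzyme that activates ATG8 and ATG12, fell to 2.98 ± 0.0852 FPKM in BRQ, against 5.81 ± 0.214 FPKM in DMSO (log2 fold change -0.86). ATG7 spans 304 kb, and the value was -0.41 with the span trend removed.

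Of 17 other receptors 11 rose and 5 fell (median 0.30). The largest rises were in BNIP3L and BNIP3, mitophagy receptors that are also known as hypoxia targets. BNIP3L rose to 101 ± 10.1 FPKM in BRQ, against 26.5 ± 2.03 FPKM in DMSO (log2 fold change 1.90, SE 0.07, limma adjusted p = 5.20e-09), and BNIP3 to 122 ± 12.6 FPKM in BRQ, against 57.3 ± 1.87 FPKM in DMSO (log2 fold change 1.07). Of the ubiquitin-binding receptors most like SQSTM1, OPTN rose to 88.8 ± 0.971 FPKM in BRQ, against 51.1 ± 0.323 FPKM in DMSO (log2 fold change 0.79). TAX1BP1 rose by 0.15 on the log2 scale but not under quantile normalization (adjusted p = 0.156, limma). CALCOCO2 had 41.8 ± 1.27 FPKM in BRQ and 38.8 ± 0.782 FPKM in DMSO, and its call as higher ended under TMM factors and quantile normalization, without a trend, and without BRQ replicate 3 (adjusted p = 0.0801), DMSO replicate 2 (0.0568) or DMSO replicate 3 (0.0559), all limma. WDFY3, a large adaptor for aggregates that spans 297 kb, fell (log2 fold change -1.03, and -0.60 with the span trend removed).

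The fusion list, whose products join autophagosomes to lysosomes, had 10 of 14 genes lower and 2 higher (median -0.40). VPS16, a core subunit of the HOPS tethering complex, fell to 6.76 ± 0.730 FPKM in BRQ, against 20.2 ± 0.759 FPKM in DMSO (log2 fold change -1.52, SE 0.07, limma adjusted p = 2.24e-08). Other HOPS subunits, named after their values were seen, were VPS18 (-0.95), VPS11 (-0.65), VPS41 (-0.54, and -0.28 with the span trend removed) and VPS39 (-0.33), which fell, and VPS33A (0.16). VPS33A had a log2 fold change above 0 in all 18 fits (0.088 to 0.18) and was called higher in 15 of them. The call of VPS33A ended without BRQ replicate 1 or DMSO replicate 2, which left 1 gene higher in this list, as did TMM factors. VAMP8, the lysosomal SNARE, rose to 27.0 ± 1.39 FPKM in BRQ, against 10.7 ± 0.851 FPKM in DMSO (log2 fold change 1.30), and TECPR1, a tethering factor, fell (-1.09).

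The nutrient control list holds mTORC1, its regulators and the factors that act on TFEB or FOXO targets. Of its 27 genes 15 fell and 8 rose (median -0.19), and 5 rose without BRQ replicate 1 or BRQ replicate 3. FNIP1, which with folliculin activates RRAGC and so keeps TFEB out of the nucleus, fell to 7.21 ± 0.480 FPKM in BRQ, against 24.5 ± 0.438 FPKM in DMSO (log2 fold change -1.70, SE 0.05, limma adjusted p = 1.44e-09). RPTOR, the mTORC1 subunit that binds substrates, fell as well (-1.10), and its locus of 422 kb gave -0.52 with the span trend removed. The list also holds inhibitors of mTORC1, so its counts give no direction for mTORC1. Among the TSC, SESN and DDIT4 genes, named after their values were seen, TSC2 (-1.05), TSC1 (-1.03), SESN2 (-0.29) and DDIT4 (-0.19) fell. SESN1 (0.31) rose. SESN3 (0.66, with 0.803 FPKM in BRQ and 0.325 FPKM in DMSO) was called higher but passed the filter only through the 3 BRQ libraries. It was tested in 14 of the 18 fits and called in 13 of them (highest adjusted p = 0.236, limma). SESN3 is among the 8 genes counted as higher in this list. FOXO4, a transcription factor of the family that targets autophagy genes, rose to 3.54 ± 0.165 FPKM in BRQ, against 1.41 ± 0.205 FPKM in DMSO (log2 fold change 1.08).

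Lysosome genes with CLEAR elements, the class that TFEB and TFE3 act on, numbered 25, of which 14 were called higher and 5 lower (median 0.19). The split was 13 higher and 8 lower under TMM factors, and 13 higher and 9 lower under quantile normalization. The protease CTSL rose to 873 ± 12.5 FPKM in BRQ, against 333 ± 4.26 FPKM in DMSO (log2 fold change 1.39), and GAA, acid alpha-glucosidase, rose by 0.95. SGSH, a sulfatase for heparan sulfate, fell to 2.98 ± 0.353 FPKM in BRQ, against 8.13 ± 0.407 FPKM in DMSO (log2 fold change -1.31).

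The KEAP1 and NRF2 list was included because p62 binds KEAP1 and SQSTM1 is an NRF2 target. Of its 10 genes 6 rose and 4 fell (median 0.81). KEAP1, the adaptor that marks NRF2 for degradation, had 22.8 ± 1.85 FPKM in BRQ and 14.5 ± 0.789 FPKM in DMSO (log2 fold change 0.64), while NFE2L2, the NRF2 gene, had 55.9 ± 1.75 FPKM in BRQ and 72.1 ± 0.970 FPKM in DMSO (-0.37). These transcript levels do not show whether KEAP1 protein is functional in this line or how active NRF2 is. NQO1, a quinone reductase, rose to 785 ± 27.8 FPKM in BRQ, against 225 ± 4.50 FPKM in DMSO (log2 fold change 1.80), and SRXN1 rose by 2.30 and HMOX1 fell by 1.90 on the log2 scale. The rise of SQSTM1 by 0.15 was smaller than that of all 6 of the genes that rose here.

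**Figure D4:**
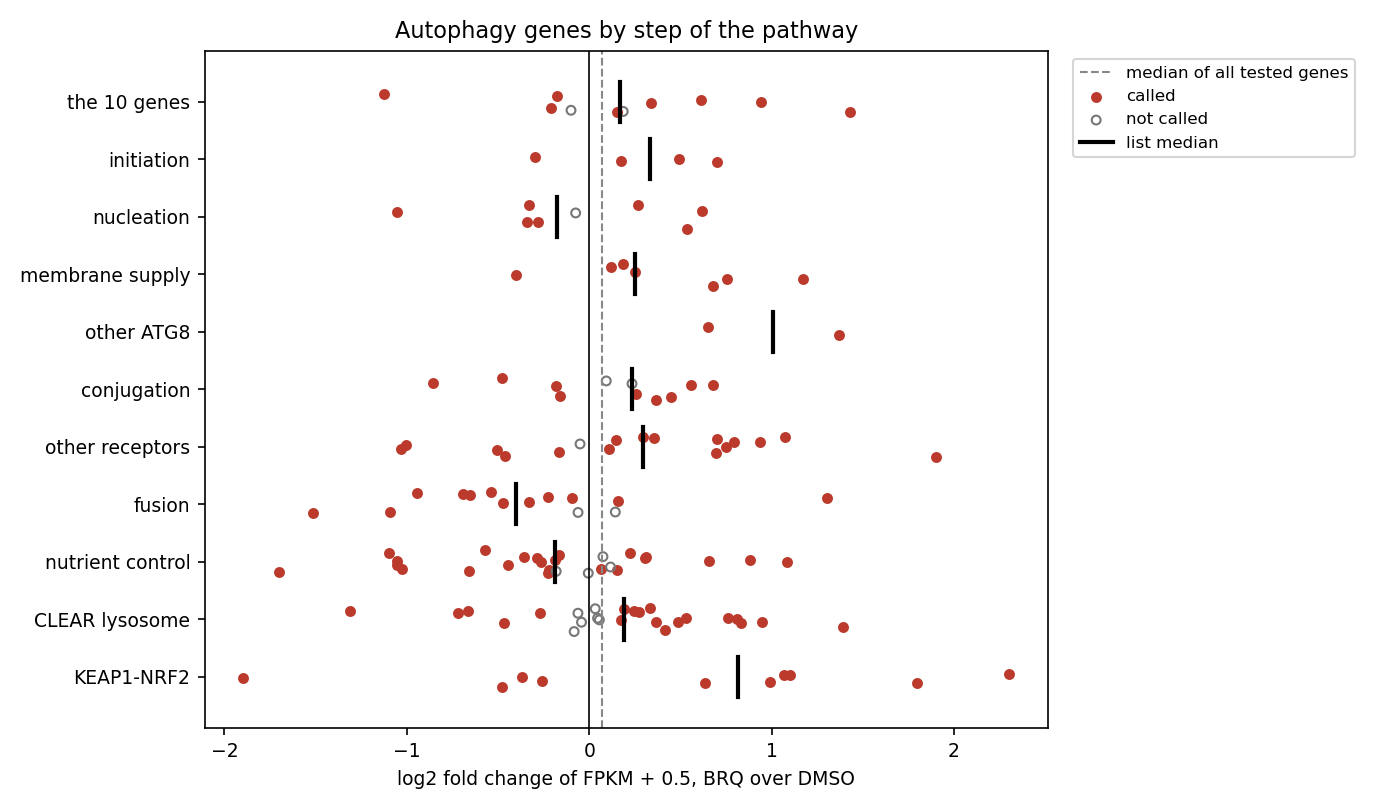
Log2 fold change of FPKM + 0.5, BRQ over DMSO (horizontal axis), of each tested gene in the 10 autophagy genes and the 10 pathway lists (rows). Filled points were called, open points were not, black bars are list medians and the dashed line is the median of all tested genes (0.07). The fusion list has the lowest median (-0.40), and the 2 other ATG8 genes have the highest (1.01).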

How the data were processed

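The deposited table holds FPKM values of 17335 genes in 6 libraries, 3 per treatment label. Per the submitters' processing notes the authors used fastp, HTSeq and hg38. No aligner, annotation or strand setting is stated in what was used here. Reads and gene lengths were worked back from the steps between values, taking for each gene the smallest length that gave whole reads. Such a length was found for 100% of genes (within 0.01 reads), which does not show that it is the true one. In simulated data reads were recovered exactly for 99.1% of genes. The worked-back reads on listed genes made up 99.54% to 99.59% of each library total.

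Log2(FPKM + 0.5) was analysed with limma 3.58.1 in R 4.3.3 (eBayes with trend, treatment as the only term) for the 12258 genes with at least 0.5 FPKM in 3 of 6 libraries, with two-sided p-values adjusted by Benjamini-Hochberg over all of them (threshold 0.05). This scale understates the change of low genes. In simulated data the fit called 22 of 50 genes with a 1.25-fold change and 50 of 50 with a 1.5-fold change. Small changes can thus be missed. Of the 12104 genes tested there 11904 were unchanged, whereas 79.7% of genes were called in the data here.

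Members and lists were chosen with earlier results of these data known. The text names the members, up to 3 called genes of each list (largest change, groups apart, mean of 1 FPKM or more in either group) and 10 set relatives or partners (TFE3, MITF, ULK2, MAP1LC3A, MAP1LC3B2, OPTN, CALCOCO2, TAX1BP1, KEAP1, NFE2L2). Outside this rule AMBRA1, RUBCN, PIK3R4 and the further HOPS, TSC, SESN and DDIT4 genes were named after their values were seen. Coordinates and promoters come from RefSeq (GRCh38.p14), strands, overlaps and coding sequences from GENCODE 29. Alternatives were pseudocounts of 0.1 and 1, no filter or a mean of 1 FPKM, TMM factors (on FPKM, without weights), quantile normalization, no trend, array weights, a replicate block, limma-voom on recovered reads and leaving out each library. Removal of the lowess trend with genomic span and GENCODE lengths for the ATG8 shares were added after the data were seen. Python 3.11.15, numpy 2.4.6, pandas 2.3.3 and matplotlib 3.10.9 were used.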

Additional observations from a re-analysis of the deposited data

How the results depend on the processing

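Under the 17 alternatives the 8 calls among the 10 genes kept their direction and stayed past the threshold. WIPI1 gained a call as lower under TMM factors (log2 fold change -0.17), and ran from -0.16 to -0.066 over the fits that leave out 1 library. TFEB turned to -0.054 under quantile normalization and ran from 0.11 to 0.29 over the fits that leave out 1 library. MITF, near 0 and not called, turned to 0.33 (called, adjusted p = 9.37e-05, limma) with the span trend removed, and to 0.0087, 0.0027 and 0.0073 without BRQ replicate 3, DMSO replicate 1 and DMSO replicate 2; it ran from -0.025 to 0.0087 over such fits. The cause of these changes was not tested. With GENCODE transcript lengths, and only the 4 main ATG8 genes in the sum, the difference in share between BRQ and DMSO was 30.3 percentage points for MAP1LC3B, -15.8 for GABARAP and 0.405 for GABARAPL2, against 26.3, -14.7 and 0.762 with 7 genes. With the same 4 genes and the lengths behind the FPKM values it was 28.6, -14.7 and 0.998. The values with GENCODE lengths rest on worked-back reads, which are uncertain for GABARAPL2. The replicate numbers share only a label: deviations of same-numbered BRQ and DMSO libraries correlated at -0.0235, -0.0083 and -0.0378. With the replicate block 5351 genes were higher and 4278 lower, against 5425 and 4343, and the block changed no call among the 10 genes. Depth limits TFEB most, with 103 to 187 reads.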
